A study of Mus musculus with 6 samples.

Results

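The genes described here encode the constitutive proteasome, and they were chosen by symbol: every gene of the deposited table named Psma, Psmb, Psmc or Psmd followed by a number, leaving out the interferon-inducible Psmb8, Psmb9 and Psmb10. The rule gave 36 of the 24410 gene symbols, 16 of the core (Psma and Psmb) and 20 of the cap (Psmc and Psmd). The table holds 3 libraries of the genotype Txnip -/- (KO 1 to KO 3) and 3 of the wild type (WT 1 to WT 3). All were of strain C57BL/6 and 5 months old per the labels. In both genotypes the starting material was marrow depleted of lineage-positive cells. It was expanded for 3 days with stem cell factor at 100 ng/mL and thrombopoietin at 20 ng/mL, both murine, in a medium that also held serum. Cells positive for CD41, the integrin subunit of megakaryocytes, were then sorted. The labels do not say how the Txnip allele was made, nor whether libraries came from separate mice. Per its title, the study concerned the need for Txnip in megakaryocyte development and platelet formation.

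The proteasome is the barrel-shaped protease that degrades proteins tagged with ubiquitin. Its core is a stack of outer alpha rings and inner beta rings, and only a few of the beta subunits cut peptide bonds. The cap sits on the end of the barrel, binds the ubiquitin chain, removes it, and uses a ring of ATPases to unfold the substrate and push it into the core. In blood cells interferon can replace the catalytic beta subunits by inducible relatives. Megakaryocytes and platelets contain working proteasomes, and drugs that inhibit the proteasome lower platelet counts.

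Txnip itself was listed at 0, 0.04 and 0 FPKM in KO 1 to KO 3, against 112, 228 and 143 FPKM in WT 1 to WT 3, which fits the genotype labels (difference −7.26 on the log2(FPKM + 1) scale, SE 0.28; limma, adjusted p = 2.02e-05). FPKM are fragments scaled by transcript length and library size, so levels of different genes can be compared. The sum of FPKM lay between 715200 and 1132000 per library, the highest in WT 2, where 30.4% came from the short noncoding RNAs Rpph1 and Rmrp, against 10.7% to 20.6% elsewhere. The files state no depth; the spacing of low values gave about 12250000 fragments for KO 1, 17200000 for WT 1 and 17100000 for WT 2, and no clear answer for the others. Markers of megakaryocytes summed to 638 to 1762 FPKM in KO and 619 to 1615 in WT libraries. Markers of other lineages were also present: those of granulocyte-monocyte progenitors summed to 2758 to 5699 FPKM in KO and 4091 to 4846 in WT, and those of monocytes, macrophages and dendritic cells to 1350 to 1937 in KO and 899 to 1917 in WT. Late neutrophil markers summed to 1259 to 3559 in KO and 2019 to 3479 in WT, and mast cell and basophil markers to 449 to 1038 in KO and 778 to 1235 in WT. Eosinophil markers summed to 173 to 529 in KO and 394 to 696 in WT, erythroid markers to 25.7 to 64.9 in KO and 47.8 to 71.9 in WT, and lymphoid markers to 77.0 to 97.7 in KO and 88.1 to 113 in WT. Of the lymphoid markers Cd3e was listed at 0 in all 6 libraries, and of the eosinophil markers Ear1 stayed under 1 FPKM. None of these marker genes passed the test. Several lists nevertheless had means on 1 side: the monocyte, macrophage and dendritic cell markers were higher in KO for 6 of 6 genes tested, while those of granulocyte-monocyte progenitors were lower for 5 of 5, of mast cells and basophils for 6 of 6 and of eosinophils for 3 of 3. Of all genes 36.6% were lower and 63.4% higher. The part of these markers in the results below was not tested. In such bulk RNA, fewer cells of a type and less RNA per cell cannot be told apart.

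All members but Psmb11 passed the filter of at least 1 FPKM in at least 3 libraries, 15 of the core and 20 of the cap. None of these 35 differed between knockout and wild-type cells at an adjusted p under 0.05 (limma, adjusted over all 11249 genes tested, of which 0.0178% passed), and none had an unadjusted p under 0.05, against 0.676% of all genes. The core and the cap did not have the same balance of signs. All 14 standard core subunits were lower in the knockout, with differences of −0.40 to −0.03 on the log2(FPKM + 1) scale, while 8 of 20 cap members were higher and 12 lower. The median difference was −0.12 over the 15 core members and −0.0066 over the 20 cap members, and 0.06 over all genes tested, of which 36.6% were lower. As a ratio of KO to WT these medians are 0.92 for the core, 0.995 for the cap and 1.04 for all genes. The 95% interval of every core gene tested spanned 0 in the fit without a block, while the core median was below 0 in each of the 3 pairs of same-numbered libraries. The sign of the core median turned with a common-sum scaling, which moves all genes, and its size moved most with the library left out, as given below. With quantile normalization 10 of 15 core members were lower, beside 48.3% of all genes.

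Levels among the members followed core and cap. Averaged over the 6 libraries, the 14 standard core genes lay between 143 FPKM (Psmb5) and 306 FPKM (Psma2), a span of 2.14-fold, and the 17 standard cap genes between 47.3 FPKM (Psmc2) and 156 FPKM (Psmd8), a span of 3.28-fold. Psmd8 alone among cap genes had a mean within the core range. Most neighbours in these orders were close: the gap between adjacent means was within the larger SD over libraries for 13 of 15 neighbouring pairs in the core and 17 of 19 in the cap. That SD includes variation shared by both genes of a pair. Psmc3, for example, was above its neighbour Psmd14 in 6 of 6 libraries. The gap exceeded the larger SD at the steps down to Psma8 and Psmb11 in the core and to Psmd10 and Psmd9 in the cap.

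**Figure D1:**
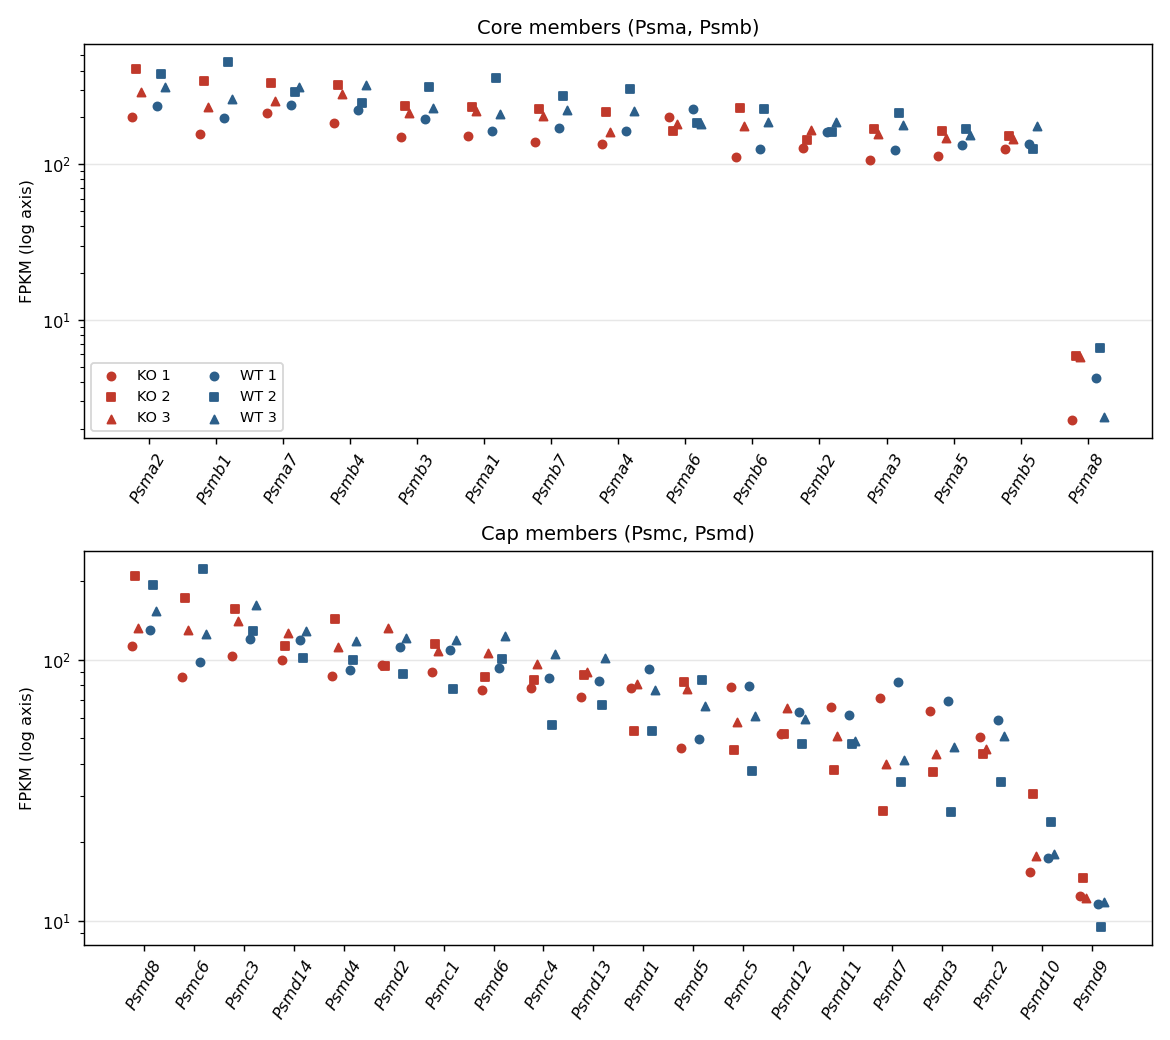
FPKM of each member on a log axis, core members in the upper panel and cap members in the lower one, ordered by their mean; each point is 1 library, KO in red left of WT in blue, with the replicate number as the symbol. Psmb11, at most 0.41 FPKM, is not drawn. Core genes lie between 143 and 306 FPKM on average apart from Psma8, and Psmd10 and Psmd9 lie below the other cap genes.

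The members with a specialised role lay at the bottom. Psma8, the alpha subunit used in the testis in place of Psma7, was at 2.26, 5.84 and 5.78 FPKM in KO 1 to KO 3, against 4.21, 6.64 and 2.36 FPKM in WT 1 to WT 3. The genotypes overlapped (difference 0.06, SE 0.40). Its reads can be shared with Psma7, so its level is an estimate. Psmb11, the beta subunit of thymic cortical epithelium, was at 0.41, 0.16 and 0.01 FPKM in KO 1 to KO 3 and at 0.10, 0.11 and 0 FPKM in WT 1 to WT 3, too low to be tested.

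In the alpha ring, whose subunits form the gate of the barrel, 7 of 7 genes had a lower mean in the knockout and none passed the test (median −0.12). Psma4 had the smallest p of all core members. It was at 135, 218 and 161 FPKM in KO 1 to KO 3, against 163, 302 and 221 FPKM in WT 1 to WT 3. Every KO library was below the WT library of its number, yet the genotypes overlapped, and the difference of −0.40 had a 95% interval of −1.05 to 0.26 (limma, adjusted p = 1.00). With the replicate number as a block its interval was −0.72 to −0.08 (limma, adjusted p = 0.683); it was the 1 member with an unadjusted p under 0.05 in that fit, where 6.93% of all genes had one, and 2.28% of all genes had one with a lower level in KO. Over all genes 0.0267% passed the adjusted threshold in that fit, and no member did. Psma3 was at 107, 168 and 156 FPKM in KO 1 to KO 3 and at 124, 212 and 178 FPKM in WT 1 to WT 3, again lower in each of the 3 pairs (difference −0.25, SE 0.27). Psma2, the most abundant member, was at 202, 412 and 290 FPKM in KO 1 to KO 3, against 237, 380 and 314 FPKM in WT 1 to WT 3. Its number 2 libraries were the highest of each genotype and its difference was −0.07 (SE 0.31). Psma7 averaged 267 ± 59.3 FPKM in KO and 281 ± 36.8 in WT, Psma1 201 ± 42.6 in KO and 244 ± 101 in WT, and Psma6 182 ± 18.1 in KO and 198 ± 24.6 in WT (SD, n = 3 each).

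The structural beta subunits complete the inner ring without cutting. Psmb1, second in level in the core, was at 157, 342 and 233 FPKM in KO 1 to KO 3, against 197, 454 and 262 FPKM in WT 1 to WT 3. Within each genotype it varied by more than the genotypes differed (difference −0.30, SE 0.38). Psmb3 was at 149, 237 and 213 FPKM in KO 1 to KO 3 and at 195, 313 and 229 FPKM in WT 1 to WT 3 (difference −0.30, SE 0.27). Psmb2 was at 128, 144 and 165 FPKM in KO 1 to KO 3, against 162, 162 and 188 FPKM in WT 1 to WT 3. Psmb2 varied little between libraries, KO 3 alone lay above the lowest WT values, and the difference was −0.23 (SE 0.20).

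The catalytic subunits were measured at similar levels. Psmb6, of caspase-like specificity, was at 112, 231 and 176 FPKM in KO 1 to KO 3, against 125, 227 and 187 FPKM in WT 1 to WT 3 (difference −0.07, SE 0.32). Psmb7, which cuts after basic residues, was at 139, 227 and 205 FPKM in KO 1 to KO 3 and at 170, 272 and 222 FPKM in WT 1 to WT 3, lower in 3 of 3 pairs (difference −0.22, SE 0.27). Psmb5, the chymotrypsin-like subunit and main target of bortezomib, was at 125, 152 and 146 FPKM in KO 1 to KO 3, against 134, 126 and 176 FPKM in WT 1 to WT 3. The genotypes overlapped, and the difference was −0.03 with a 95% interval of −0.52 to 0.45.

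**Figure D2:**
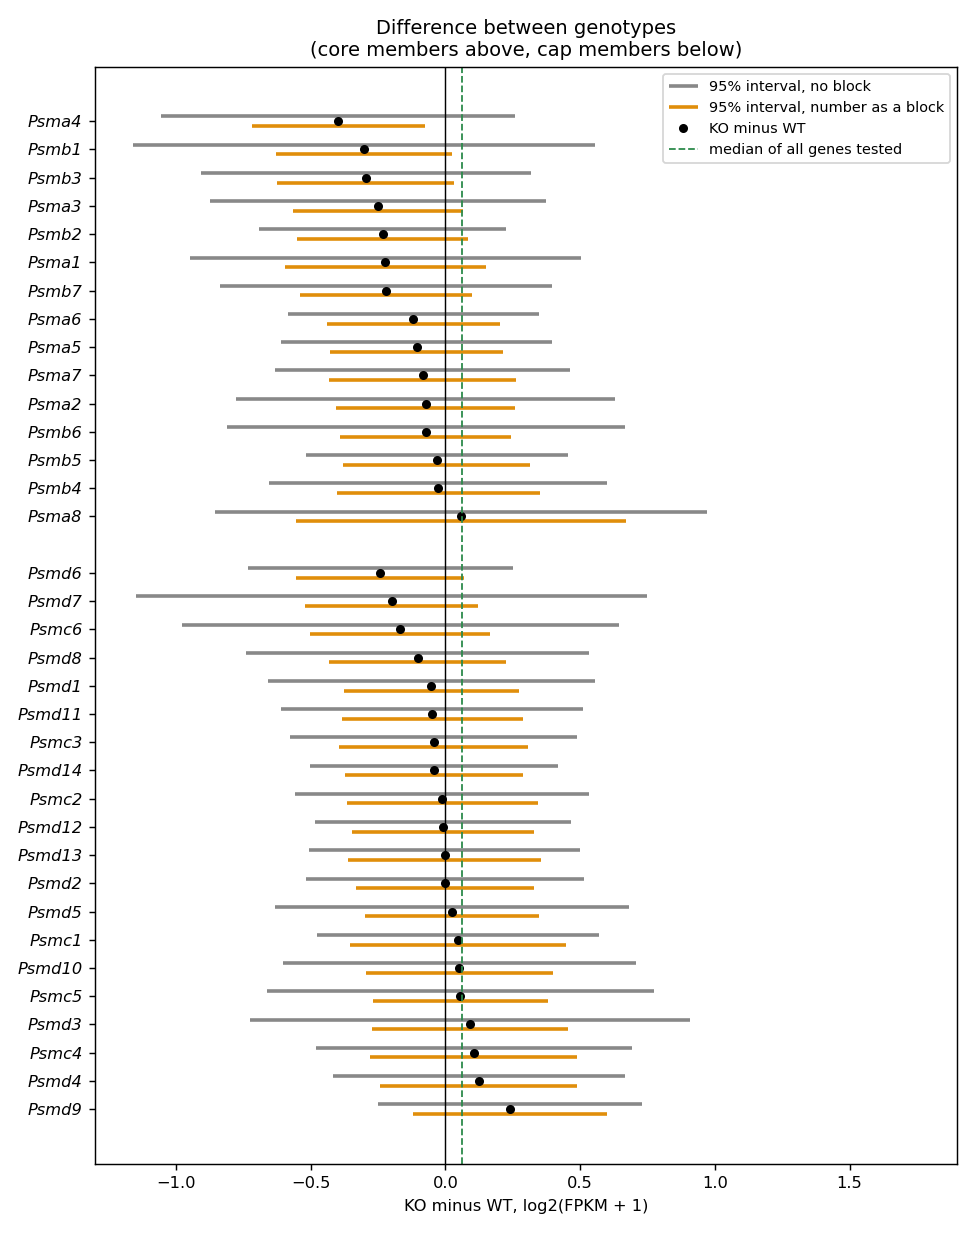
KO minus WT on the log2(FPKM + 1) scale for the 35 tested members, core above and cap below, each ordered by its difference; points are differences, grey bars 95% intervals without a block, orange bars with the replicate number as a block, and the dashed line the median of all genes tested at 0.06. Every grey interval spans 0, and of the orange ones that of Psma4 alone does not.

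The inducible counterparts can be set against the constitutive catalytic subunits as a ratio of FPKM within a library. This is a ratio of RNA and does not show which subunits the particles held. Psmb8 over Psmb5 was 1.67, 2.59 and 2.06 in KO 1 to KO 3, against 1.56, 2.02 and 1.55 in WT 1 to WT 3, higher in 3 of 3 pairs. Psmb9 over Psmb6 was 0.869, 0.656 and 0.664 in KO 1 to KO 3, against 0.727, 0.526 and 0.547 in WT 1 to WT 3, also higher in 3 of 3 pairs. Psmb10 over Psmb7 was 0.505, 0.219 and 0.255 in KO 1 to KO 3, against 0.403, 0.167 and 0.346 in WT 1 to WT 3, higher in 2 of 3 pairs. For each of the 3 ratios the genotypes overlapped. Exact 2-sided permutation tests over the 6 libraries, without the pairing by number, gave p = 0.2, 0.3 and 1.0 in the order named. With 3 against 3 such a test cannot go below 0.1. A ratio within a library is not changed by a common rescaling of that library. The monocyte, macrophage and dendritic cell markers, higher in KO for 6 of 6 genes, summed to 1937, 1350 and 1754 FPKM in KO 1 to KO 3, against 899, 1280 and 1917 FPKM in WT 1 to WT 3, and their part in these ratios was not tested.

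**Figure D3:**
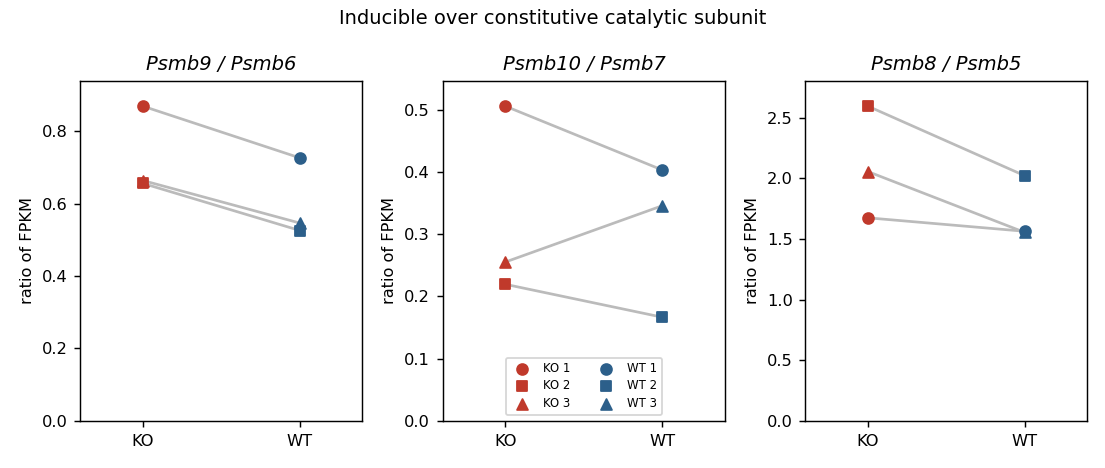
Ratio of FPKM of the inducible to the constitutive catalytic subunit in each library, KO left of WT; grey lines join libraries of the same number. Psmb9 over Psmb6 and Psmb8 over Psmb5 are higher in KO in all 3 pairs, and Psmb10 over Psmb7 in 2 of 3.

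In the cap, the 6 ATPases split 3 higher and 3 lower (median 0.02) and no gene passed the test. Psmc6 was at 86.3, 172 and 130 FPKM in KO 1 to KO 3, against 98.01, 224 and 125 FPKM in WT 1 to WT 3 (difference −0.17, SE 0.36). Psmc4 was at 77.9, 83.7 and 96.2 FPKM in KO 1 to KO 3 and at 85.2, 56.2 and 105 FPKM in WT 1 to WT 3 (difference 0.10, SE 0.26). Psmc6 was highest in the number 2 libraries of both genotypes, while Psmc4 was lowest in WT 2. The other ATPase genes Psmc1, Psmc2, Psmc3 and Psmc5 differed by −0.04 to 0.06.

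Of the 11 other standard cap subunits, 9 had a negative and 2 a positive difference on the log2(FPKM + 1) scale (median −0.04). Psmd6, a scaffold protein of the lid, had the smallest p of the cap. It was at 76.5, 86.1 and 106 FPKM in KO 1 to KO 3, against 93.0, 101 and 124 FPKM in WT 1 to WT 3, lower in 3 of 3 pairs with overlapping genotypes (difference −0.24, SE 0.22). Psmd7, the partner of the deubiquitinase subunit Psmd14, was at 71.6, 26.5 and 40.1 FPKM in KO 1 to KO 3, against 82.4, 34.1 and 41.5 FPKM in WT 1 to WT 3. Psmd7 spanned 3.11-fold between libraries, the widest span of any member at or above 5 FPKM on average, and both libraries numbered 1 stood above the rest (difference −0.20, SE 0.42). Psmd14 itself averaged 113 ± 13.1 FPKM in KO and 117 ± 13.8 in WT (SD, n = 3 each). The large scaffold subunit Psmd2 averaged 107 ± 21.4 FPKM in KO and 107 ± 16.8 in WT, and its partner Psmd1 70.8 ± 15.0 in KO and 74.0 ± 19.6 in WT (SD, n = 3 each). Psmd8, a lid gene and the most abundant of the cap, was at 113, 210 and 132 FPKM in KO 1 to KO 3, against 130, 194 and 154 FPKM in WT 1 to WT 3 (difference −0.10, SE 0.28). The lid genes Psmd11, Psmd12 and Psmd13 differed by −0.05 to −0.0034.

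Psmd5, Psmd9 and Psmd10 match the symbol rule but act as chaperones in the assembly of the cap and are not part of the finished particle. All 3 had higher means in the knockout. Psmd9 was at 12.4, 14.6 and 12.3 FPKM in KO 1 to KO 3, against 11.6, 9.46 and 11.8 FPKM in WT 1 to WT 3. Psmd9 was the 1 member whose KO libraries all lay above all WT libraries, as did 3.32% of all genes; no member had all KO libraries below all WT libraries, against 1.03% of all genes. Its difference of 0.24 had a 95% interval of −0.25 to 0.73 (limma, adjusted p = 1.00). Psmd10, also known as gankyrin, was at 15.3, 30.7 and 17.8 FPKM in KO 1 to KO 3 and at 17.5, 23.9 and 18.0 FPKM in WT 1 to WT 3 (difference 0.05, SE 0.29). Psmd5 was at 45.9, 82.3 and 77.3 FPKM in KO 1 to KO 3 and at 49.9, 83.6 and 66.7 FPKM in WT 1 to WT 3 (difference 0.02, SE 0.29).

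Psmd4, Psmb4 and Psma5 share chromosome 3 with Txnip, which lies at chr3:96557957-96561857 (GRCm38; the authors used mm9, whose coordinates differ). Psmd4 and Psmb4 lie 1515343 and 1670999 bases from it and Psma5 11695069 bases. Psmd4, a ubiquitin receptor of the cap, was at 86.7, 143 and 112 FPKM in KO 1 to KO 3, against 91.4, 99.7 and 118 FPKM in WT 1 to WT 3 (difference 0.12, SE 0.24). Psmb4, a structural beta subunit, was at 183, 322 and 284 FPKM in KO 1 to KO 3 and at 223, 246 and 323 FPKM in WT 1 to WT 3 (difference −0.03, SE 0.28). Psma5, of the alpha ring, was at 113, 165 and 148 FPKM in KO 1 to KO 3 and at 134, 167 and 153 FPKM in WT 1 to WT 3 (difference −0.11, SE 0.22). Each of the 3 overlapped between genotypes. Psmd4 and Psmb4 were higher in KO 2 than in WT 2 and lower in KO 1 than in WT 1 and in KO 3 than in WT 3. Members on other chromosomes, among them Psma2, Psma7 and Psmc1, had the same signs by pair.

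The promoters of 29 members are in the RefSeq table used here (GRCm38.p6), 12 of the core and 17 of the cap, and 4 motifs were searched on both strands in the 250 bases before each listed start of a gene. The core of the antioxidant response element, TGACNNNGC, which Nrf factors use to raise proteasome genes, was found in 5 members (Psmb5, Psmb6, Psmc6, Psmd9 and Psmd12) and in 11.5% of all genes with a promoter in the table. The ETS core CCGGAAG was found in 1 core and 8 cap members, against 7.83% of all genes. CCAAT was found in 7 core and 5 cap members, against 37.5%, and the E-box CACGTG, the motif of Mondo and Myc family factors, in Psma4 and Psmd9 and in 6.86% of all genes. These shares of all genes are over 27025 genes with a promoter, more than the 11249 tested, and so include genes not tested here. In the sequences printed here no match of a motif overlaps that of another. Below are the promoters of Psma4 and Psmd9, which had the smallest p of the core and the highest difference of the cap, of the drug target Psmb5, and of Psmd4, the member nearest Txnip, in lower case with every match in capitals. Psma4 is chr9:54950609-54950780 (plus strand, up to the annotated gene start), Psmd9 chr5:123227940-123228189 (plus), Psmb5 chr14:54617996-54618245 (minus) and Psmd4 chr3:95042615-95042864 (minus).
Psma4: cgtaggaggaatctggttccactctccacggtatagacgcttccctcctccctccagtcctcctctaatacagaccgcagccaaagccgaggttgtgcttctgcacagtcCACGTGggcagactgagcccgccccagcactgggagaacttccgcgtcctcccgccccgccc
Psmd9: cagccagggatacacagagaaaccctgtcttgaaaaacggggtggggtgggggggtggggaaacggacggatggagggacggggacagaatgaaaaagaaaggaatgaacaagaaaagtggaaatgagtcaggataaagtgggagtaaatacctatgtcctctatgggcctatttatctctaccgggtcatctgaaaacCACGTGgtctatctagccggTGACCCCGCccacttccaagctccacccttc
Psmb5: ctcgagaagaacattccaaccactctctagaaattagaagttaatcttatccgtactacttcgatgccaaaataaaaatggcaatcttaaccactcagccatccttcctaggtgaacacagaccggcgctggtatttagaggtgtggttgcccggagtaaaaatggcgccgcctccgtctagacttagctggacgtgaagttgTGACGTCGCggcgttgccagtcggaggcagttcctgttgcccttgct
Psmd4: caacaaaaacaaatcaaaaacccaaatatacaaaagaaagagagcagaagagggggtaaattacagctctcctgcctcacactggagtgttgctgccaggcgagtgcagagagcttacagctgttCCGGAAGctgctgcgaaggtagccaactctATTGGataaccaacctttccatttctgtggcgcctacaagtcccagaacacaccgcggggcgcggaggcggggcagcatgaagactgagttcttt
A match describes letters only. Psma4 and Psmd9, which both hold CACGTG, differed by −0.40 and 0.24, and neither passed the test. The part of the motif in these differences was not tested.

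Over the 35 tested members the median range between libraries was 0.65 within KO and 0.62 within WT on the log2(FPKM + 1) scale. From number 1 to number 2, 27 of 35 members differed with the same sign in both genotypes, as did 79.7% of all genes. In the core 12 of 15 members were higher in number 2 than in number 1 in both genotypes, against 29.1% of all genes, Psmb1 by 1.16 averaged over genotypes. In the cap 7 of 20 members were higher and 7 lower in number 2 in both genotypes. Psmc6 was higher by 0.99 in KO and 1.18 in WT, while Psmd7 differed by −1.40 in KO and −1.25 in WT, Psmd3, a lid scaffold gene, by −0.76 in KO and −1.38 in WT, and the ATPase gene Psmc5 by −0.80 in KO and −1.05 in WT. Members of the same particle thus differed in opposite directions between the same libraries.

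**Figure D4:**
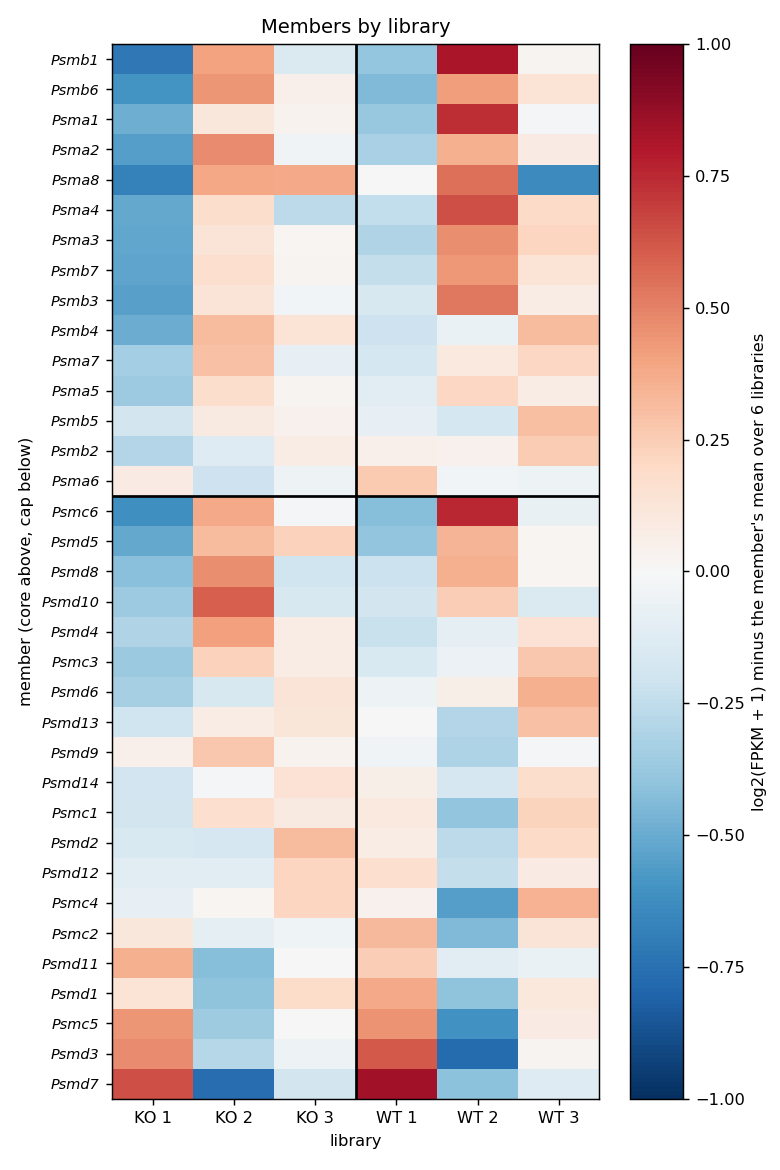
log2(FPKM + 1) of each tested member minus its own mean over the 6 libraries, core above and cap below the line, ordered by the change between numbers 1 and 2; KO libraries stand left of WT libraries. Columns of the same number resemble each other across genotypes, most core members are low in KO 1 and WT 1, and Psmd7, Psmd3 and Psmc5 run the opposite way.

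KO 1 held the lowest of the 6 values for 13 of the 14 standard core genes, against 17.8% of all genes, and for 8 of 20 cap members. Psma6, the exception in the core, was lowest in KO 2. WT 2 held the highest value for 7 of the 14 and the lowest for 10 of 20 cap members, against 13.3% and 30.6% of all genes. The median over standard core genes was 144, 229 and 194 FPKM in KO 1 to KO 3, against 167, 259 and 216 FPKM in WT 1 to WT 3. The same median over standard cap genes was 78.2, 86.1 and 96.2 FPKM in KO 1 to KO 3, against 91.4, 67.5 and 105 FPKM in WT 1 to WT 3. The ratio of core to cap medians was therefore 1.84, 2.66 and 2.01 in KO 1 to KO 3 and 1.83, 3.85 and 2.05 in WT 1 to WT 3, close between genotypes in numbers 1 and 3 and apart in number 2.

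By pair, the core median was −0.25, −0.17 and −0.11 in pairs 1 to 3, with 15, 10 and 12 of 15 members lower, while the cap median was −0.20, 0.20 and −0.06, with 18, 5 and 13 of 20 lower. Among all genes 44.5%, 41.1% and 42.0% were lower in these pairs. Lower in all 3 pairs were 7 core members (Psma3, Psma4, Psma5, Psmb1, Psmb2, Psmb3 and Psmb7) and the cap members Psmd6 and Psmd7, beside 8.68% of all genes; Psmd9 alone was higher in all 3, beside 20.4% of all genes. Without KO 1 the core median was −0.013 with 8 of 15 lower, and the cap median was 0.08 with 7 of 20 lower, beside 48.4% of all genes. Without WT 2 the core median was −0.06 with 10 of 15 lower, and the cap median −0.13 with 14 of 20 lower, beside 48.5% of all genes. All 15 core members were lower without KO 2 and without KO 3, where 35.1% and 38.9% of all genes were. Of the cap 7 were lower without WT 3, beside 38.6% of all genes, and 5 with numbers 2 and 3 only, beside 37.1%. That last fit leaves out KO 1 together with WT 1, and its core median was −0.09 with 11 of 15 lower.

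Rescaling libraries to a common sum of FPKM moved the median of all genes to 0.22 and the share of lower genes to 13.3%. The core median then turned to 0.06, with 7 of 15 members lower, and the cap median to 0.17, with 2 of 20 lower. Leaving Rpph1 and Rmrp out of that sum gave 8 of 15 core and 3 of 20 cap members lower, beside 19.6% of all genes. Relative to the median of all genes the core stood at −0.18 as deposited, −0.16 with the common sum, −0.19 with median-of-ratios scaling, and −0.09 with quantile normalization. With a library left out it stood at −0.02 without KO 1, −0.42 without KO 2, −0.22 without KO 3, −0.40 without WT 1, −0.07 without WT 2 and −0.24 without WT 3. With both libraries numbered 1 left out it stood at −0.16. The cap stood between −0.07 and −0.01 relative to all genes under the same 4 scalings, at 0.07 without KO 1 and at −0.14 without WT 2.

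**Figure D5:**
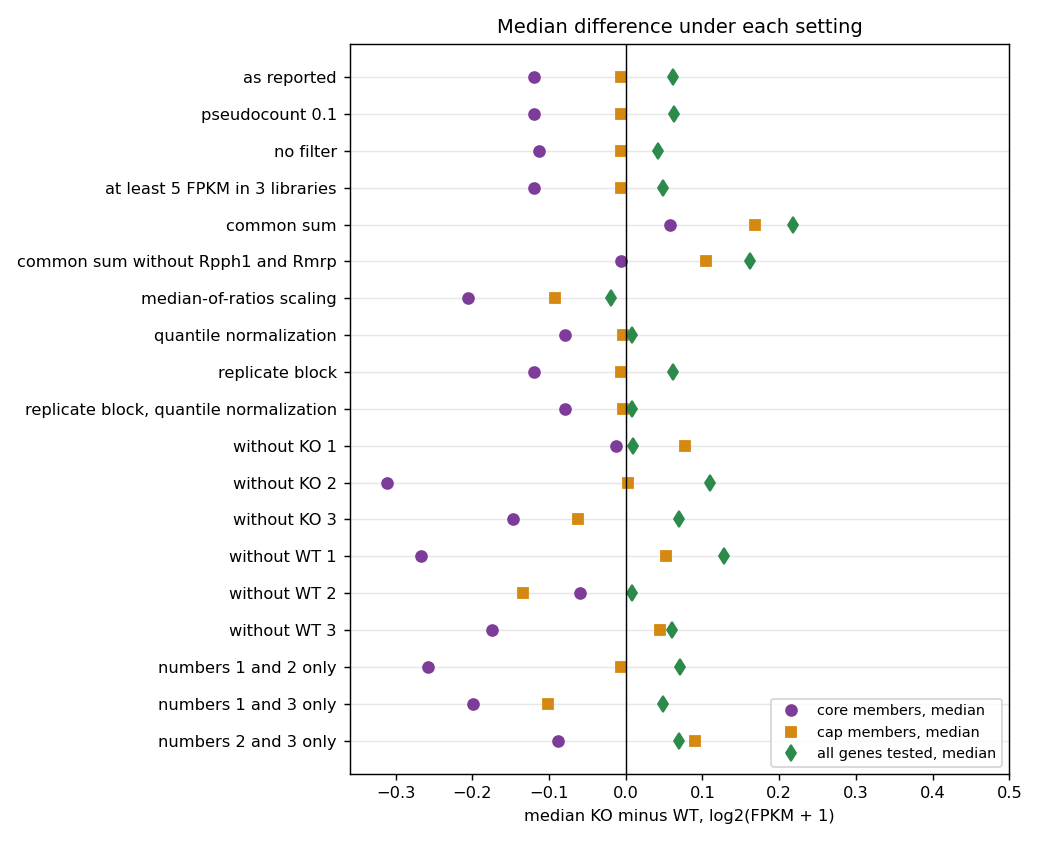
Median KO minus WT on the log2(FPKM + 1) scale over core members (circles), cap members (squares) and all genes tested (diamonds) under each setting. The core median is below that of all genes in every setting drawn, by as little as 0.02 without KO 1, and it is above 0 with the common sum.

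Across all genes tested, level, transcript length and base composition moved with these differences. Across all 11249 genes tested the difference between genotypes had a Spearman coefficient of −0.28 with the mean level, and across the 35 members −0.66 (genes share libraries and are not independent). The core and the cap differ in level and length, and taken apart the coefficient with level was −0.17 in the core and −0.34 in the cap. The coefficient with transcript length was 0.24 and with GC content 0.30 across the 10464 genes with a length in GENCODE M21, and 0.33 and 0.30 across the 35 members. With length it was 0.0036 within the core and −0.11 within the cap, and with GC content 0.24 and 0.38. By pair the coefficient with GC content changed sign. It was 0.17, 0.43 and −0.17 across all genes in pairs 1 to 3, and 0.28, 0.49 and −0.35 across members. Core transcripts were shorter than cap transcripts, with a median of 1165 against 1802 bases, and 2882 bases over all genes. The part of level, length and composition in the core result was not tested.

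Other genes of the pathway gave no call either. All 4 further cap proteins had lower means in the knockout (median −0.16). Shfm1, a small cap subunit, averaged 574 ± 182 FPKM in KO and 673 ± 309 in WT, the deubiquitinase gene Usp14 35.4 ± 15.3 in KO and 39.0 ± 9.07 in WT, Uchl5, another deubiquitinase, 45.2 ± 10.4 in KO and 49.3 ± 8.01 in WT, and the ubiquitin receptor gene Adrm1 34.3 ± 14.0 in KO and 35.2 ± 13.7 in WT (SD, n = 3 each). Of the 5 core assembly chaperones 4 were lower (median −0.016), Psmg1 averaging 51.4 ± 13.2 FPKM in KO and 55.8 ± 6.10 in WT (SD, n = 3 each). Alternative caps and inhibitors were higher in 4 of 6 genes, Psme2 of the interferon-inducible cap averaging 154 ± 12.1 FPKM in KO and 143 ± 26.1 in WT, and Psme4, a nuclear cap, 33.6 ± 6.34 in KO and 36.9 ± 2.73 in WT (SD, n = 3 each).

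Regulators of proteasome genes had higher means in 8 of 10 genes (median 0.12), beside 63.4% of all genes, and none passed the test (limma, adjusted p = 1.00 for each). Nfe2l1, the factor that raises proteasome transcription when the protease is inhibited, was at 31.7, 36.8 and 27.1 FPKM in KO 1 to KO 3, against 29.5, 25.5 and 26.8 FPKM in WT 1 to WT 3 (difference 0.21, SE 0.20). Maff, one of its small Maf partners, was at 8.22, 8.21 and 4.49 FPKM in KO 1 to KO 3 and at 5.32, 4.93 and 4.24 FPKM in WT 1 to WT 3. Bach1, a repressor at the same element, was at 29.4, 23.6 and 21.0 FPKM in KO and 24.2, 18.9 and 16.9 in WT. Both were higher in 3 of 3 pairs with overlapping genotypes. Ubiquitin genes were lower in 4 of 6, Rps27a, a fusion of ubiquitin and a ribosomal protein, averaging 2155 ± 671 FPKM in KO and 2713 ± 1378 in WT (SD, n = 3 each). Ubiquitin shuttles and the Vcp unfoldase with its cofactors were higher in 5 of 9, the cofactor gene Ufd1l averaging 24.1 ± 2.72 FPKM in KO and 21.3 ± 3.05 in WT (SD, n = 3 each).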

How the data were processed

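RNA-seq libraries of cultured CD41+ cells, 3 Txnip -/- and 3 wild-type, were analysed, grouped by the sample titles. The authors deposited a table of FPKM per gene symbol. The tools, per the submitters' processing notes, were RSEM 1.2.31, STAR 2.7.0a, Trimmomatic 0.39 and FastQC, and the build was mm9; their roles, settings and annotation were not stated. RSEM divides reads among similar transcripts, so genes with close paralogs or processed pseudogenes have uncertain values. All 6 columns were used.

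From these values, limma 3.58.1 in R 4.3.3 (lmFit, eBayes with a trend) was fitted to log2(FPKM + 1), KO minus WT, two-sided, on the 11249 genes that reached 1 FPKM in 3 or more libraries. P-values were adjusted over all of these by Benjamini-Hochberg, with a threshold of 0.05. Counts of genes higher or lower in KO go by the sign of this difference, which can depart from that of mean FPKM near 0. Differences on this scale understate changes of low genes. The code was tested on simulated data with independent noise and with differences larger than those of the members. That test does not cover deviations shared by libraries of the same number. Members are described by counts and medians beside all genes, with no test over the list. The members, gene lists and motifs were chosen with earlier results of these data known. Named in full are members of smallest p, highest and lowest level, special role or on chromosome 3, and up to 4 genes per list. Transcript lengths and GC content come from the GENCODE M21 transcript with the longest coding part.

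Deviations from the genotype means correlated across genes between KO and WT libraries of the same number (r = 0.81, 0.59 and 0.38 for numbers 1 to 3), so the numbers were taken to pair libraries, although no label explains the number. In both genotypes libraries 1 and 2 held Y-linked Ddx3y (22.8 to 41.7 FPKM) and library 3 held Xist instead (91.6 in KO and 48.1 in WT). By these genes numbers 1 and 2 were male and number 3 female in both genotypes. Each genotype thus mixed sexes, sex was tied to the number, and libraries numbered 3 came from other mice than the rest. Since no label ties a library to a mouse, p-values reflect only the variation among libraries. Between libraries 1 and 2 of a genotype it may be technical. Alternatives were other pseudocounts, filters and scalings, the number as a block, and leaving out libraries.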

Additional observations from a re-analysis of the deposited data

How the results depend on the processing

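No member passed the threshold under any of the 18 alternatives (limma, smallest adjusted p 0.683, with the number as a block), and the signs of Psma3, Psma4, Psmb2, Psmb3, Psmb7, Psmd6 and Psmd9 were the same in all 18. Over all genes 2 passed; the count was 1 with no filter and with numbers 1 and 2 or 1 and 3 only, and 1 to 3 with a library left out. With the number as a replicate block 3 passed, none of them a member, and the medians did not change; with the block, unadjusted p under 0.05 was reached by 780 genes, against 76 without it. The core median of −0.12 was 0.058 with the common sum, −0.0063 with the common sum without Rpph1 and Rmrp, −0.21 with median-of-ratios scaling, −0.26 with numbers 1 and 2 only, −0.20 with numbers 1 and 3 only, −0.09 with numbers 2 and 3 only, and between −0.31 (without KO 2) and −0.013 (without KO 1) with a library left out. The count of lower core members, 14, was 7 with the common sum, 8 with the common sum without Rpph1 and Rmrp, 11 with numbers 2 and 3 only, and 8 to 15 with a library left out. It was 10 with quantile normalization and 15 with median-of-ratios scaling. The count of lower cap members, 12, was 2 and 3 under the common-sum scalings, 5 with numbers 2 and 3 only, and 7 to 14 with a library left out. It was 10 with quantile normalization and 16 with median-of-ratios scaling. Fits on numbers 1 and 3 or 2 and 3 only were chosen after seeing the data. The common sum moves all genes alike, so members near 0 change sign. Quantile normalization, with the median of all genes at 0.0077, changed the sign of 6 core and 4 cap members. For that scaling and for the libraries left out the cause was not tested. Depth, unclear for 3 libraries, may limit the values of the lowest members, Psma8 and Psmb11. Its part was not tested.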
